A study of Rattus norvegicus with 12 samples.

Results

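Fibronectin, tenascin C, periostin, SPARC, fibrillin 1, elastin and the fibulins 1, 2 and 5 are secreted proteins that build or tune the fibrous matrix around disc cells. Their 9 genes (Fn1, Tnc, Postn, Sparc, Fbn1, Eln, Fbln1, Fbln2 and Fbln5) were taken by symbol from the 3 deposited tables, in which they are 9 of the 12899 genes common to all tables. All 9 had a mean of at least 10 normalised reads, the minimum for testing, in each comparison. The RNA came from primary cells of the nucleus pulposus, the soft core of the intervertebral disc, which were taken from Wistar rats and grown out of explants in medium with 10% serum. Every culture carried a lentivirus, either an shRNA against TonEBP (shTon) or the control vector (PLKO), and was given TNF-a at 50 ng/mL for 24 h (TNF) or left untreated (CTR). The groups are shTon_TNF (TonEBP shRNA with TNF-a), PLKO_TNF (control vector with TNF-a), shTon_CTR (TonEBP shRNA, untreated) and PLKO_CTR (control vector, untreated), with 3 libraries each, numbered as sets 1, 2 and 3. The sources used here do not give the age and sex of the rats, the shRNA sequence or what a set stands for, and the p-values therefore reflect just the spread among these 12 libraries, which may be technical.

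Fibronectin forms the first fibrils that cells lay down and pull on through integrins, and fibrillin 1 forms the microfibrils on which elastin is deposited. Fibulins join these networks: fibulin 5 tethers elastin to cells and microfibrils, fibulin 2 binds fibronectin and fibrillin 1, and fibulin 1 binds fibronectin and basement membranes. Tenascin C, periostin and SPARC are matricellular proteins, which change how cells hold on to the matrix more than they carry load, and mice without SPARC develop early disc degeneration. TonEBP is the product of Nfat5, a transcription factor for adaptation to high osmolarity, a condition of the disc core. TNF-a is a cytokine of painful, degenerating discs.

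The promoters of Fbln2 and Sparc, the 2 genes with the smallest p-values for knockdown averaged over both conditions, and of Fbln5, the one with the smallest for TNF-a averaged over both vectors, are shown here because TonEBP and its relatives bind the short core TGGAAA. RefSeq promoters (rat build GRCr8, 250 bases before to 50 bases after the start of the gene, in the direction of the gene) matched 6 of the 9 genes, namely Fbln2, Fbln5, Fbn1, Postn, Sparc and Tnc. TGGAAA on either strand is in capitals. They lie at chr4:125261409-125261708 on the plus strand (Fbln2), chr10:40038767-40039066 on the minus strand (Sparc) and chr6:126742657-126742956 on the minus strand (Fbln5).
Fbln2: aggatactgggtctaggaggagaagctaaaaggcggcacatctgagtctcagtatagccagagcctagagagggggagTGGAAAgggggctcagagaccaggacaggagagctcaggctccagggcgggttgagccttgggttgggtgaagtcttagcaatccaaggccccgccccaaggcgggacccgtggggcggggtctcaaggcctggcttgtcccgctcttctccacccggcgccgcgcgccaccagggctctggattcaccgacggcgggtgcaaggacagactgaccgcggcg
Sparc: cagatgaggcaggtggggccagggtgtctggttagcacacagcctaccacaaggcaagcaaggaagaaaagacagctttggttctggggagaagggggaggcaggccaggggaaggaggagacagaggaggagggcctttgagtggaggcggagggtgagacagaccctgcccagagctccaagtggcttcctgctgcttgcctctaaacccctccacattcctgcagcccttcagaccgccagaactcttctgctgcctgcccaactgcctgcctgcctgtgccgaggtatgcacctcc
Fbln5: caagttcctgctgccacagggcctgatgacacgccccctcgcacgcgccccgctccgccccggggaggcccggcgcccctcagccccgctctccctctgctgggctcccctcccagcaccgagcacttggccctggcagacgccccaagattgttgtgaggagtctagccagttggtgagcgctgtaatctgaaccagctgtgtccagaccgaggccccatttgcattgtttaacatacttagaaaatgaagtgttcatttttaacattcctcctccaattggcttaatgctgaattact
TGGAAA stood in 1 of the 6 promoters, that of Fbln2, on the strand of the gene from -172 to -167 relative to its start. It stands in 22.7% of all 33469 promoters. The longer tonicity-responsive element consensus, which holds that core, was in 0 of the 6 and in 5.98% of all promoters. A match or its absence describes these letters in this window only.

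Depth ran from 7160042 to 18645538 reads per library over the listed genes, and normalised reads below are reads divided by 1 factor per library, set jointly over all 12. Nfat5, the target of the shRNA, was lower in the shTon library in 5 of the 6 pairs of one set. The exception was set 1 with TNF-a, where it stood at 1695 normalised reads in the library labelled shTon_TNF, against 642 in PLKO_TNF, so the target goes against the label of that library. Effects of knockdown are therefore also given without it or without set 1 where that changes a call. The mean effects of the 9 genes described are also given without it, for Fbn1 as the call alone and for Eln as the adjusted p alone. In limma with the set as a block Nfat5 did not pass for knockdown. Its log2 fold change was -0.26 with TNF-a (adjusted p = 0.799), -1.61 without (adjusted p = 0.0963) and -0.93 averaged over both conditions (adjusted p = 0.158). The authors' deposited values do call it in untreated cells (-1.19, adjusted p = 4.57e-05). The skeletal muscle markers, 12 of 12 listed, summed to 43798 to 99519 normalised reads in set 1, to 16736 to 30432 in set 2 and to 56.0 to 102 in set 3. Of the nucleus pulposus and notochord markers, 6 of 11 were analysed and summed to 3417 to 16497, with Krt8 at 64.2 to 209 in sets 1 and 2 and at 1329 to 2278 in set 3. Car3 of that list stood at 6443 to 13348 in set 1, 2680 to 4741 in set 2 and 3.03 to 45.8 in set 3. It thus ran from set 1 down to set 3 as the muscle markers did. Car3 made up most of the list's sum in set 1, and Car3 and Lgals3 together most of it in set 2. Of the cartilage matrix markers 3 of 8 were analysed, at a sum of 105 to 652. Aggrecan, collagen II and brachyury were listed but were not found by symbol among the 12899 common genes, so they could not be analysed. Fewer cells of a type and less RNA per cell cannot be told apart in such bulk cultures.

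Taken as reads, the 9 genes together made up 1.19% to 3.52% of each library, and Fn1 alone 0.777% to 2.91%. Elastin was at the other end, with 1 to 45 reads per library. These shares are not per length, so they do not rank the genes.

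**Figure D1:**
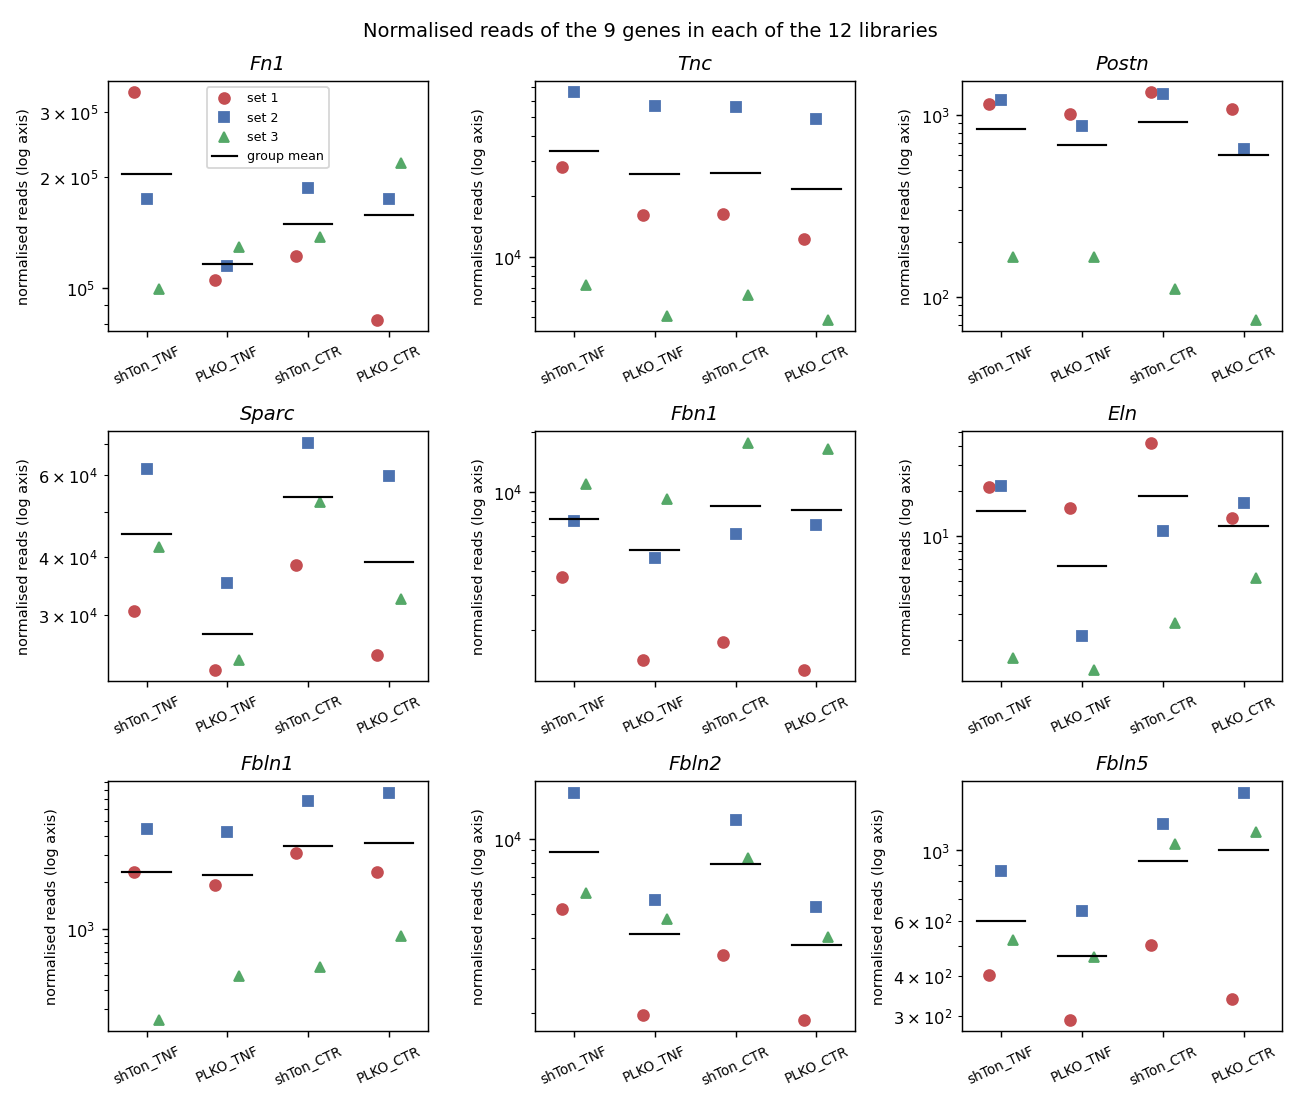
Normalised reads (log axis, joint scale) of each of the 9 genes in each of the 12 libraries, by group, with the set as symbol and the group mean as a bar. Fbln2 is higher in the shTon library than in the PLKO library of the same set in every pair, and the symbols of the 3 sets lie far apart for Tnc, Postn, Fbn1 and Fbln1.

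With the TonEBP shRNA, the data show more Fbln2 RNA, about a doubling, when both conditions are averaged. This contrast was added after the separate values had been seen. Sparc and Tnc showed smaller rises in it, which passed in just 6 and 4 of 10 alternative fits, against 8 for Fbln2. No other of the 9 genes passed. Nfat5, the target, was at -0.93 in that contrast and did not pass (limma, adjusted p = 0.158). Taken separately in untreated and in TNF-a treated cells, none of the 9 passed in limma fits of each pair of groups alone. DESeq2 and the authors' deposited tables call Fbln2 in both conditions and Sparc with TNF-a.

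Fbln2 stood at 5227, 15267 and 6026 normalised reads in shTon_TNF (sets 1, 2 and 3), against 1964, 5652 and 4767 in PLKO_TNF. In untreated cells it stood at 3415, 11906 and 8328 in shTon_CTR, against 1872, 5320 and 4020 in PLKO_CTR. The shTon library was the higher one in 6 of 6 pairs of a set, although the ranges of the groups overlap across sets, and set 2 is the highest of the 3 in all 4 groups. The log2 fold change for knockdown with TNF-a was 1.06 (SE 0.24, adjusted p = 0.111, limma with the set as a block and Benjamini-Hochberg adjustment over all genes), and without TNF-a it was 1.02 (SE 0.13, adjusted p = 0.0558). The within-set log2 ratios were 1.42, 1.44 and 0.33 with TNF-a and 0.86, 1.15 and 1.05 without. With TNF-a the value was 0.89 when set 1 was left out (adjusted p = 0.102) and passed when set 3 was (1.43, adjusted p = 0.0219). In untreated cells it passed when set 1 was left out (1.10, adjusted p = 0.0405) and when set 3 was (1.01, adjusted p = 0.00363). In the authors' deposited tables Fbln2 is at 0.90 (adjusted p = 0.00289) with TNF-a and 0.94 (adjusted p = 1.09e-07) without, so they call Fbln2 in both. DESeq2 on the recovered reads gave adjusted p = 0.00238 and 5.64e-08. A limma fit with all 12 libraries also called Fbln2 with TNF-a. The call for Fbln2 in each condition thus depends on the test and on the libraries in the fit.

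These tests call very different shares of all genes. In limma 0.254% of 12213 genes passed for knockdown with TNF-a, and 0.113% of 12383 without. The authors' deposited tables call 3.31% and 3.59% of the genes with a listed adjusted p in the same comparisons. Over all genes 2079 of 12213 with TNF-a and 2108 of 12383 without had an unadjusted p under 0.05 in limma. These values over all genes also hold for the gene lists below. Of the 9 genes 0 passed in these limma fits in both comparisons, with 3 at an unadjusted p under 0.05 in each. edgeR called 0 in both, and DESeq2 called Fbln2 and Sparc with TNF-a and Fbln2 without.

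The mean of both knockdown effects was then tested in a single limma fit of all 12 libraries, a contrast added after the separate values had been seen. In that fit 13.5% of 12310 genes passed, 6.38% of them upward as a share of all tested, and 3 of the 9 genes passed, all upward. Fbln2 had a log2 fold change of 1.04 (SE 0.15, 95% interval 0.72 to 1.37, adjusted p = 0.00301), which is 2.06-fold. Without the library labelled shTon_TNF of set 1 it was 0.95 (adjusted p = 0.00413). It passed on sets 2 and 3 (adjusted p = 0.0138) and on sets 1 and 2 (adjusted p = 0.00670), but not without set 2 (0.92, adjusted p = 0.123), where 0 of 12300 genes passed and 2144 had an unadjusted p under 0.05 (limma, the only tool run without a set).

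Sparc, a collagen-binding glycoprotein that loosens cell contacts, had 30619, 61733 and 41988 normalised reads in shTon_TNF, against 22891, 35174 and 24018 in PLKO_TNF. In untreated cells it had 38550, 70468 and 52445 in shTon_CTR, against 24635, 59726 and 32536 in PLKO_CTR. It was higher in the shTon library in 6 of 6 pairs, and the groups overlap across sets. The log2 fold change was 0.68 with TNF-a (SE 0.25, adjusted p = 0.230) and 0.52 in untreated cells (SE 0.21, adjusted p = 0.271). With set 1 left out, Sparc was at 0.81 with TNF-a (adjusted p = 0.329). For Sparc the values in the authors' deposited tables are 0.61 with TNF-a (adjusted p = 0.0325) and 0.47 without (adjusted p = 0.0543). The mean effect of 0.60 passed (SE 0.13, 95% interval 0.31 to 0.89, adjusted p = 0.0149), also without the library labelled shTon_TNF of set 1 (adjusted p = 0.0200). Leaving out any set ended the call: the value was 0.64 (adjusted p = 0.0506) when set 1 was left out, 0.64 (adjusted p = 0.155) for set 2 and 0.53 (adjusted p = 0.106) for set 3.

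Tnc, tenascin C, an adhesion-modulating protein of injured and growing tissue, had 27970, 66033 and 7268 normalised reads in shTon_TNF, against 16123, 56548 and 5094 in PLKO_TNF. In untreated cells it had 16381, 55674 and 6454 in shTon_CTR, against 12229, 48469 and 4859 in PLKO_CTR. Again the shTon library was higher in 6 of 6 pairs, by log2 ratios of 0.19 to 0.81, while the sets differed far more than the groups. The log2 fold change was 0.51 with TNF-a (SE 0.23, adjusted p = 0.300) and 0.34 without (SE 0.15, adjusted p = 0.316). The mean effect of 0.43 passed narrowly (SE 0.12, 95% interval 0.15 to 0.70, adjusted p = 0.0442). It did not pass in edgeR (adjusted p = 0.0536), without the library labelled shTon_TNF of set 1 (0.33, adjusted p = 0.0657), or without set 1 (0.34, adjusted p = 0.143), set 2 (0.53, adjusted p = 0.178) or set 3 (0.41, adjusted p = 0.184).

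**Figure D2:**
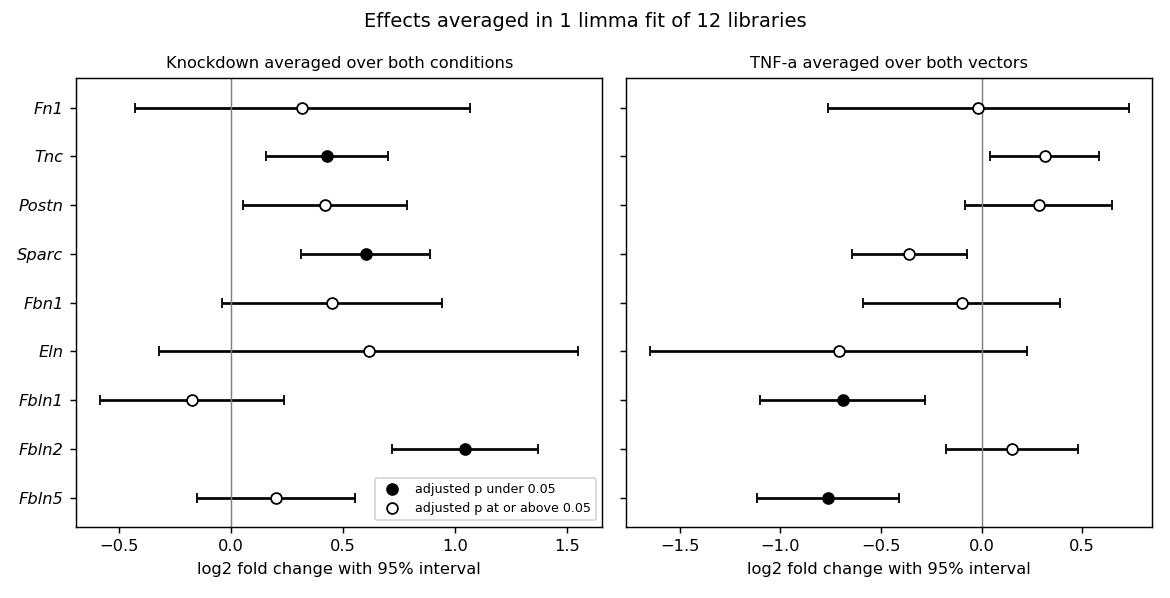
Log2 fold change with its 95% interval for each of the 9 genes, for knockdown averaged over both conditions (left) and TNF-a averaged over both vectors (right), in 1 limma fit of 12 libraries with the set as a block. Filled points passed at an adjusted p under 0.05: Fbln2, Sparc and Tnc to the right of 0 for knockdown, Fbln1 and Fbln5 to the left of 0 for TNF-a.

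Some fibroblast, annulus and tendon markers rose as well. Of all genes tested 6.38% rose in the averaged knockdown contrast and 13.5% passed either way. Of the 9 tested markers of that list 4 rose there and 0 fell, while 5 had values above 0 and 4 below. Those that rose were the tendon factor Scx, Col1a2, Col3a1 (log2 fold change 1.17, adjusted p = 0.00503) and Col1a1 (1.16, adjusted p = 0.0108), the last 3 being fibrillar collagen genes. All 4 were lost without set 2 (adjusted p of 0.121 to 0.171) and Scx without set 3 (adjusted p = 0.0584), and all 4 passed without the library labelled shTon_TNF of set 1. The 4 markers below 0 were Pdgfra (-0.67), Thy1 (-0.42), Dcn (-0.34) and Lum (-0.22), with adjusted p of 0.0894 to 0.377, and Thy1 fell when set 1 was left out (-0.66, adjusted p = 0.028). The list summed to 28352 to 150567 normalised reads in shTon_TNF, 34202 to 92760 in PLKO_TNF, 41587 to 186503 in shTon_CTR and 39947 to 157156 in PLKO_CTR. None of its 9 analysed markers was at 0 in all libraries. Of the 3 tested cartilage matrix markers 2 rose likewise, Col11a2 (1.74, adjusted p = 0.00449) and Comp (1.09, adjusted p = 0.0368), both lost without set 2 (adjusted p = 0.127 and 0.213) and Comp without set 3 (adjusted p = 0.193). The part of these markers in the rise of Fbln2, Sparc and Tnc was not tested.

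Fn1 did not pass in any comparison between groups, and its highest value came from the library whose label Nfat5 goes against. It had 338089, 173933 and 99498 normalised reads in shTon_TNF, 105331, 114740 and 129684 in PLKO_TNF, 122541, 186560 and 137751 in shTon_CTR, and 82241, 174214 and 217477 in PLKO_CTR. The sets disagree: with TNF-a the shTon library was higher in sets 1 and 2 (log2 ratios 1.69 and 0.60) and lower in set 3 (-0.39). The mean effect of knockdown was 0.32 (95% interval -0.43 to 1.07, adjusted p = 0.570), and -0.01 without the library labelled shTon_TNF of set 1. As a fold this interval runs from 0.743 to 2.09, so a change of that size cannot be told from none at this spread.

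Postn, periostin, which binds tenascin C and collagen I, was 0.62 higher on the log2 scale with knockdown in untreated cells (SE 0.16, adjusted p = 0.136), with 1331, 1307 and 111 normalised reads in shTon_CTR and 1080, 651 and 74.9 in PLKO_CTR. With TNF-a it had 1152, 1209 and 165 in shTon_TNF and 1014, 869 and 165 in PLKO_TNF (log2 fold change 0.22, SE 0.17, adjusted p = 0.541). Neither passed, nor did the mean effect (0.42, 95% interval 0.05 to 0.79, adjusted p = 0.118), which was 0.50 without the library labelled shTon_TNF of set 1 (adjusted p = 0.0732).

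Fbn1, fibrillin 1, had 3705, 7150 and 10966 normalised reads in shTon_TNF, against 1422, 4637 and 9142 in PLKO_TNF. It was higher in the shTon library in 3 of 3 sets with TNF-a, by log2 ratios of 1.39, 0.63 and 0.26, and the value of 0.76 did not pass (SE 0.23, adjusted p = 0.179). Without set 1 it was 0.44 (adjusted p = 0.433). In untreated cells Fbn1 had 1747, 6112 and 17665 in shTon_CTR and 1264, 6783 and 16300 in PLKO_CTR (log2 fold change 0.14, SE 0.15, adjusted p = 0.683), and the ratios differ in sign between sets.

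Eln, elastin itself, was close to the lower limit of these libraries. It had 20, 22 and 1 reads in shTon_TNF, 25, 2 and 1 in PLKO_TNF, 45, 9 and 2 in shTon_CTR, and 21, 22 and 5 in PLKO_CTR. Its 95% interval for the mean effect of knockdown ran from -0.32 to 1.55 on the log2 scale (adjusted p = 0.360; 0.356 without the library labelled shTon_TNF of set 1), and a difference was not detectable at this depth. The authors' deposited tables list no adjusted p for it.

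Fbln1 and Fbln5 did not pass for knockdown. The mean effects were -0.17 for Fbln1 (95% interval -0.58 to 0.24, adjusted p = 0.575) and 0.20 for Fbln5 (95% interval -0.15 to 0.55, adjusted p = 0.435). Without the library labelled shTon_TNF of set 1 they were -0.31 (adjusted p = 0.228) and 0.10 (adjusted p = 0.691). The interval of Fbln2, from 0.72 to 1.37, does not overlap those of its relatives, although the difference between the genes was not tested.

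TNF-a lowered Fbln5 and Fbln1 in cells with the control vector, each in 3 of 3 sets. In that comparison 9.62% of 12373 genes passed, 4.65% of all tested in the downward direction, and 2 of the 9 genes passed, both downward. The authors' deposited table calls 11.8% of its genes, and the same 2 of the 9.

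Fbln5 stood at 291, 644 and 462 normalised reads in PLKO_TNF, against 338, 1524 and 1141 in PLKO_CTR. The values of sets 2 and 3 are far lower with TNF-a, while those of set 1, low in both groups, lie close together, so the groups overlap. The log2 fold change was -0.92 (SE 0.21, 95% interval -1.42 to -0.42, adjusted p = 0.0431), and the authors' deposited table lists -0.84 (adjusted p = 0.000740). In the shTon libraries it stood at 404, 863 and 522 in shTon_TNF, against 503, 1216 and 1052 in shTon_CTR, lower in 3 of 3 sets, and this did not pass (-0.61, SE 0.16, adjusted p = 0.105; without set 1 -0.75, adjusted p = 0.00499). In the control vector comparison the call was lost without set 2 (-0.76, adjusted p = 0.116), when a pseudocount of 0.1 was used (adjusted p = 0.0530) and without a mean-variance trend (adjusted p = 0.133).

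Fbln1 stood at 1918, 4256 and 489 normalised reads in PLKO_TNF, against 2325, 7700 and 892 in PLKO_CTR. The log2 fold change was -0.67 (SE 0.14, 95% interval -0.99 to -0.34, adjusted p = 0.0326), with ratios of -0.28, -0.86 and -0.86 in sets 1, 2 and 3, and the authors' deposited table lists -0.62 (adjusted p = 0.00275). In the shTon libraries it stood at 2339, 4467 and 253 in shTon_TNF, against 3108, 6759 and 557 in shTon_CTR (-0.71, SE 0.16, adjusted p = 0.0680; without set 1 -0.87, adjusted p = 0.00114). The ranges overlap in both pairs because the mean of set 2 was 10.6 times that of set 3. The control vector call was lost when set 2 was left out (-0.57, adjusted p = 0.102), when set 3 was (-0.57, adjusted p = 0.0656), without a mean-variance trend (adjusted p = 0.118) and with all 12 libraries in the fit (adjusted p = 0.171).

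In the shTon cells 3.28% of 12339 genes passed with TNF-a in limma and 0 of the 9. At an unadjusted p under 0.05 were 2 of the 9, against 2321 of the 12339. Of the 9 genes edgeR called 0, and DESeq2 called Fbln1 alone. The mean of the TNF-a effects over both vectors, likewise added after the separate values had been seen, passed for 15% of 12310 genes, 7.44% of all tested in the downward direction. Of the 9 genes Fbln5 (-0.76, SE 0.16, 95% interval -1.12 to -0.41, adjusted p = 0.0109) and Fbln1 (-0.69, SE 0.19, 95% interval -1.10 to -0.28, adjusted p = 0.0320) passed, lower in 6 of 6 pairs each. Without the library labelled shTon_TNF of set 1 they were -0.87 (adjusted p = 0.00500) and -0.83 (adjusted p = 0.00897). Without set 2 neither passed (adjusted p = 0.219 for Fbln5 and 0.333 for Fbln1), and Fbln5 did not without set 3 (-0.57, adjusted p = 0.0819).

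Nucleus pulposus and notochord markers fell in the same comparison: 3 of 6 tested were lower with TNF-a in PLKO cells and 0 higher, among them Krt8 (log2 fold change -1.10, adjusted p = 0.0230), a keratin of notochord-derived cells. Their sum ranged from 3417 to 8529 normalised reads in PLKO_TNF and from 7351 to 12655 in PLKO_CTR. In set 1 most of it was Car3 (6443 in PLKO_TNF and 8729 in PLKO_CTR), so the sum does not measure Krt8 or Pax1. Of all genes tested 4.65% fell with TNF-a in PLKO cells. Of the fibroblast, annulus and tendon markers 2 of 8 fell, Col3a1 (-1.70, adjusted p = 0.00934) and the tendon transcription factor Scx (-0.76, adjusted p = 0.0157). The part of these markers in the fall of Fbln5 and Fbln1 was not tested.

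The other 7 genes did not pass for TNF-a. Sparc was lower with TNF-a in 6 of 6 pairs (-0.44 in PLKO cells, adjusted p = 0.179; -0.28 in shTon cells, adjusted p = 0.439; mean effect -0.36, 95% interval -0.65 to -0.07, adjusted p = 0.0911). Tnc was higher in 6 of 6 pairs (0.23, adjusted p = 0.312; 0.40, adjusted p = 0.290; mean effect 0.31, 95% interval 0.04 to 0.59, adjusted p = 0.115). DESeq2 called both mean effects (adjusted p = 0.00784 for Sparc and 0.0471 for Tnc). For Fbln2 the mean effect was 0.15 (95% interval -0.17 to 0.48, adjusted p = 0.536).

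For the remaining 4 genes the sets went different ways with TNF-a. In PLKO cells the log2 fold changes were -0.33 for Fn1 (SE 0.32, adjusted p = 0.526), 0.48 for Postn (SE 0.22, adjusted p = 0.194), -0.40 for Fbn1 (SE 0.19, adjusted p = 0.206) and -1.28 for Eln (SE 0.59, adjusted p = 0.205). Fbn1 passed there without set 1 (-0.69, adjusted p = 0.0361). In shTon cells they were 0.30, 0.08, 0.21 and -0.18, with adjusted p of 0.730 to 0.877.

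**Figure D3:**
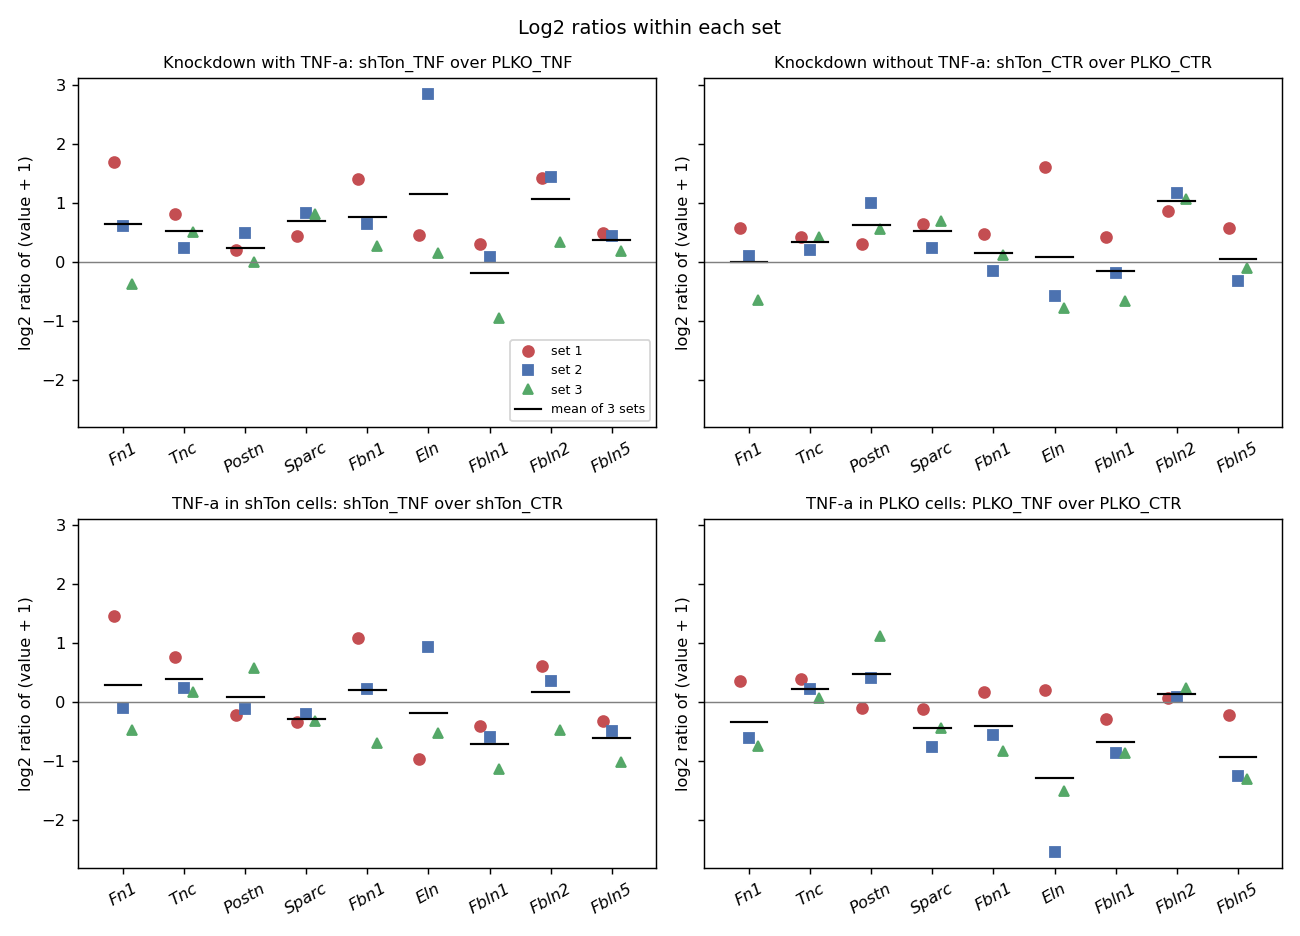
Log2 ratio of (value + 1) within each set for the 9 genes, with knockdown in the upper panels and TNF-a in the lower ones, and the mean of the 3 sets as a bar. Fbln2, Sparc and Tnc lie above 0 in all sets of both knockdown panels, and Fbln5 and Fbln1 below 0 in all sets of both TNF-a panels, while Fn1 spreads from -0.74 to 1.69 over the panels.

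Whether TNF-a acted differently with and without TonEBP knockdown was tested as the interaction over all 12 libraries. It passed for 0% of genes, 0 of 12310 in limma (219 at an unadjusted p under 0.05), 0 in edgeR (248) and 0 in DESeq2 (275). None of the 9 genes came near, each at an adjusted p of 0.999 and 0 of them at an unadjusted p under 0.05. For Fbln5 the difference of the effects was 0.32 (95% interval -0.39 to 1.02) and for Fbln1 it was -0.05 (95% interval -0.87 to 0.77), so differences up to these bounds are within the spread.

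More genes differed among the sets than in any comparison between groups. Among sets 45.4% of 12310 genes passed, and 8 of the 9 genes did, with Fn1 the exception (adjusted p = 0.885). Set means over the 4 libraries of a set, 1 of each group, ranged over 10.6-fold for Fbln1, 9.58-fold for Tnc, 8.88-fold for Postn, 8.72-fold for Eln and 6.64-fold for Fbn1. Those of Fbln2, Fbln5 and Sparc ranged over 3.06-fold, 2.76-fold and 1.95-fold, and those of Fn1 over 1.11-fold.

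The genes did not follow one order of the sets. Set 2 was highest for Tnc (56681 ± 7209 normalised reads, SD, n = 4 libraries, against 5919 ± 1141 in set 3), Fbln1, Sparc, Fbln2 and Fbln5. Set 3 was highest for Fbn1 (13518 ± 4107, against 2034 ± 1131 in set 1), and set 1 for Postn (1144 ± 137, against 129 ± 44.1 in set 3) and Eln. Without set 2 Sparc no longer passed among sets (adjusted p = 0.194), and without set 3 neither did Postn (adjusted p = 0.239) nor Eln (adjusted p = 0.159). Muscle marker sums ran from set 1 down to set 3, the order of Postn and Eln, and the fibroblast, annulus and tendon sum was 56673 to 108481 in set 1, 92760 to 186503 in set 2 and 28352 to 41587 in set 3. The part of such cells in the set differences was not tested.

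**Figure D4:**
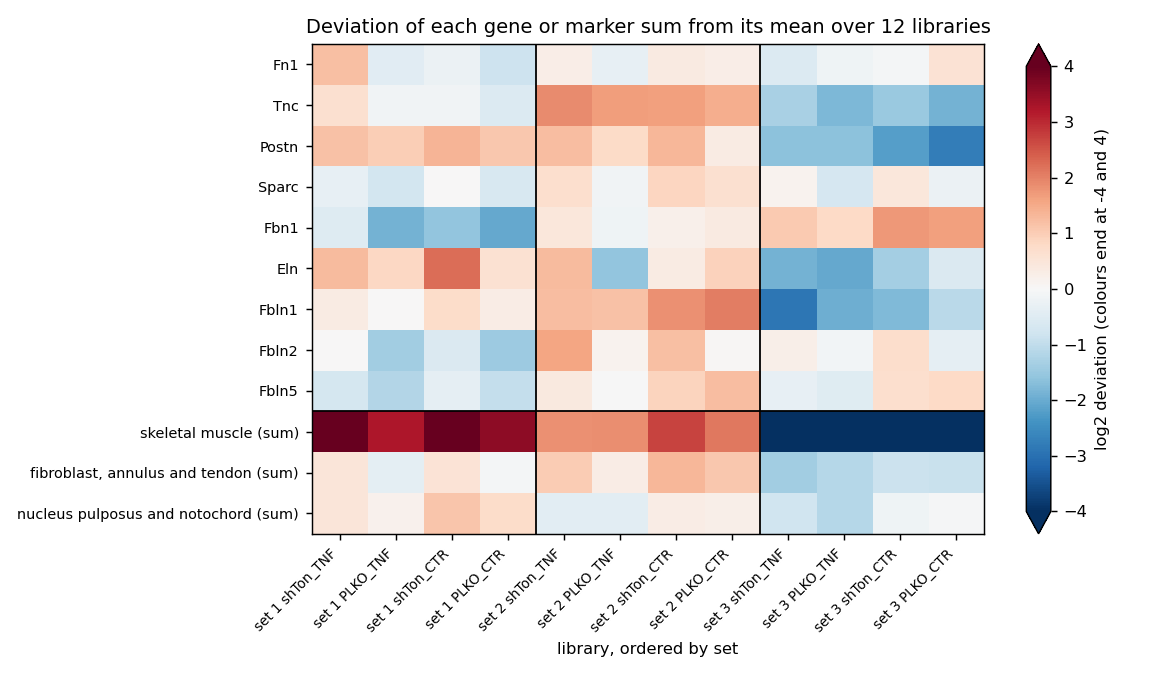
Log2 deviation of each of the 9 genes and of 3 marker sums from its mean over 12 libraries, with libraries in columns ordered by set. In most rows the colour changes mostly at the lines between sets, with Tnc and Fbln1 high in set 2 and low in set 3, and Fbn1 low in set 1 and high in set 3. The row of Fn1 is an exception, since its set means range over just 1.11-fold. The nucleus pulposus and notochord sum is mostly Car3 in set 1.

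Among the partners of elastic fibres, 15 of the 20 listed genes were tested. With TNF-a in PLKO cells 1 rose, Tgm2, the transglutaminase that crosslinks matrix proteins (log2 fold change 1.30, SE 0.10, adjusted p = 0.00218), and 2 fell, Hmcn1, hemicentin 1 (-1.19, SE 0.27, adjusted p = 0.0417), and Loxl1, a lysyl oxidase that crosslinks elastin (-0.70, SE 0.14, adjusted p = 0.0288). The list's median was -0.17, against -0.01 over all genes tested. Of all genes 9.62% passed there and 4.65% fell. Both falls were lost without set 2 (adjusted p = 0.0518 for Hmcn1 and 0.0960 for Loxl1). In shTon cells only Tgm2 passed of the 15 (0.96, SE 0.15, adjusted p = 0.0218), against 3.28% of all genes. For knockdown 0 of 15 passed in limma in each condition (3 with TNF-a and 2 without at an unadjusted p under 0.05, 0 in edgeR, 1 and 0 in DESeq2). The smallest p-values were those of Ltbp4, a latent TGF-beta binding protein that works with fibulin 5 (0.86 with TNF-a and 0.50 without, adjusted p = 0.139 in both), and of Tgm2 (-1.15, adjusted p = 0.201, and -0.81, adjusted p = 0.269). Without set 1 Tgm2 fell with TNF-a (-1.76, adjusted p = 0.00127). In the averaged contrast 2 of 15 passed, near the 13.5% of all genes. Ltbp4 rose (0.68, adjusted p = 0.00803) and Tgm2 fell (-0.98, adjusted p = 0.0485), both lost without set 2 (adjusted p = 0.159 and 0.281) and Tgm2 also without set 3 (adjusted p = 0.257).

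Of the relatives of tenascin, periostin and SPARC and the other matricellular genes, 14 of 20 could be tested with TNF-a in PLKO cells. Of all genes tested 4.65% fell there and 9.62% passed either way. Of the 14 tested from this list 4 fell and 0 rose. They were Wisp2 (-1.78, SE 0.09, adjusted p = 0.000569) and Nov (-1.36, SE 0.14, adjusted p = 0.00455), both CCN family proteins, Thbs2, thrombospondin 2 (-1.36, SE 0.32, adjusted p = 0.0438), and Tgfbi, the closest relative of periostin (-0.82, SE 0.18, adjusted p = 0.0384). The list's median was -0.58, against -0.01 over all genes. Thbs2 was lost without set 3 (adjusted p = 0.274), and Tgfbi without any of sets 1, 2 and 3 (adjusted p = 0.0520, 0.0647 and 0.130). In shTon cells, where 3.28% of all genes passed, 2 of 15 passed and both fell. They were Wisp2 (-1.17, adjusted p = 0.00819) and Nov (-1.18, adjusted p = 0.0453, and 0.0991 without set 3). For knockdown 0 passed in limma in each condition (3 and 3 at an unadjusted p under 0.05, 0 in edgeR, 2 and 2 in DESeq2). Spp1, osteopontin, was at -1.76 with TNF-a (adjusted p = 0.0800) and -1.66 without (adjusted p = 0.0931), and Tgfbi at 1.10 (adjusted p = 0.0848) and 0.98 (adjusted p = 0.0850). With TNF-a both passed when set 1 was left out (Spp1 -1.85, adjusted p = 0.0144, and Tgfbi 1.07, adjusted p = 0.0495), and Spp1 also when set 2 was (-2.17, adjusted p = 0.00449). In untreated cells both passed when set 3 was left out (adjusted p = 0.0151 and 0.00677). In the averaged contrast 2 of 14 passed, near the 13.5% of all genes. Tgfbi rose (1.04, adjusted p = 0.00246) and Spp1 fell (-1.71, adjusted p = 0.00687), both lost without set 2 (adjusted p = 0.119 and 0.0903).

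Of the 12 integrin and syndecan receptors, Itga5, the alpha chain of the main fibronectin receptor, rose with TNF-a. It did so in the control vector pair (1.02, SE 0.13, adjusted p = 0.00915) and in shTon cells (1.40, SE 0.16, adjusted p = 0.00714). Itgb5 fell in PLKO cells (-0.74, SE 0.12, adjusted p = 0.0176). Of the 12 receptors 2 passed in PLKO cells, against 9.62% of all genes, and 3 in shTon cells, against 3.28%. In shTon cells Itgb3 (1.27, adjusted p = 0.0492) and the syndecan Sdc4, a coreceptor for fibronectin (1.00, adjusted p = 0.0173), rose, and Itgb3 was lost without any of sets 1, 2 and 3 (adjusted p = 0.0686, 0.200 and 0.0566). For knockdown 0 of 12 passed in limma in each condition (3 and 3 at an unadjusted p under 0.05, 0 in edgeR, 1 and 1 in DESeq2). Itga8, which pairs with Itgb1 to bind fibronectin and tenascin C, was at -1.24 with TNF-a (adjusted p = 0.0586) and -0.93 without (adjusted p = 0.0933), Itga9 at 1.63 with TNF-a (adjusted p = 0.201) and Itgb3 at -1.37 without (adjusted p = 0.228). Itga8 passed with TNF-a when set 1 (-1.45, adjusted p = 0.00112) or set 2 (-1.22, adjusted p = 0.0381) was left out, and in untreated cells when set 3 was (-1.18, adjusted p = 0.000766). It fell in the averaged contrast (-1.08, adjusted p = 0.00902; 0.119 without set 2), where 1 of 12 passed, against 13.5% of all genes.

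Proteases that cut elastin or fibronectin had the largest log2 fold changes among the genes named, and 12 of the 15 listed were tested. With TNF-a in PLKO cells 5 of 12 rose and 0 fell, led by Mmp12, macrophage elastase (5.01, adjusted p = 0.00351), Mmp9, a gelatinase (3.79, adjusted p = 0.000685), Mmp3, stromelysin 1 (2.75, adjusted p = 0.00455), and Mmp13, collagenase 3 (2.74, adjusted p = 0.000685). The list's median was nevertheless -0.07, against -0.01 over all genes, since 7 of 12 had values below 0. In shTon cells 5 of 12 rose, with Mmp12 at 5.30, Mmp9 at 3.93, the urokinase gene Plau at 2.70 and Mmp3 at 2.61. Of all genes 9.62% passed for TNF-a in PLKO cells and 3.28% in shTon cells, either way. For knockdown Plau passed with TNF-a (1.32, adjusted p = 0.0389; 0.0557 without set 3). Without TNF-a 0 passed in limma (6 at an unadjusted p under 0.05, 0 in edgeR and 5 in DESeq2), with Mmp13 at -0.97 (adjusted p = 0.0675) and Plau at 1.31 (adjusted p = 0.0841). Both passed when set 1 was left out (adjusted p = 0.0469 and 0.0379) and when set 3 was (adjusted p = 0.0146 and 0.0049). In the averaged contrast 6 of 12 passed, against 13.5% of all genes, and of these 3 rose and 3 fell. Among them were Plau (1.32, adjusted p = 0.00221), Mmp9 (-1.82, adjusted p = 0.00941), Mmp3 (-1.18, adjusted p = 0.0108) and Mmp13 (-1.07, adjusted p = 0.00296). Those named had adjusted p of 0.0903 to 0.123 without set 2 and, for Mmp3, 0.0983 without set 3. The averaged knockdown calls named for the listed genes, from Ltbp4 to Mmp13, all passed without the library labelled shTon_TNF of set 1 (adjusted p of 0.0023 to 0.018).

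The genes whose levels most resembled each of the 9 were ranked by Pearson correlation over the 12 libraries after set means were removed, as a description over libraries that share sets and treatments. For Fbln2 they were Loxl2 (r = 0.97), a lysyl oxidase of collagen, Agrn (r = 0.95), agrin, and Gtse1 (r = 0.94). For Sparc they were F11r, Car9 and Grn (r = 0.98 each), and for Tnc Lclat1, Zbtb39 and Cdk9 (r = 0.95 to 0.96). For Fn1 they were Notch2, LOC100364912 and Dusp18 (r = 0.96 to 0.98), for Fbn1 Vps13d, Kdm5c and Rc3h1 (r = 0.96 to 0.97), and for Postn RGD1304694, Peg12 and Ranbp3 (r = 0.89 to 0.92). For Fbln5 they were Snx33, Kirrel and Cacna1g (r = 0.97 to 0.99), for Fbln1 Pcmtd1, Evc and Brd8 (r = 0.98 each), and for Eln, at its low depth, Atp13a2, Fbxw5 and Podxl2 (r = 0.90 each). Among the 9 themselves Fn1 was most like Fbn1 (r = 0.89), Fbln1 most like Fbln5 (r = 0.81) and Fbln2 most like Tnc (r = 0.77), while Fbln2 and Fbln1 were at r = -0.12. All these correlations keep the library labelled shTon_TNF of set 1, where Fn1 (338089) and Fbn1 (3705) were at their highest within that set. None was computed without it.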

How the data were processed

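RNA-seq was done on 12 libraries of rat cells, 4 groups of 3. Novoalign 2.08.01, DESeq2 and the build rn5 are named in the submitters' processing notes, without their roles. The sources used here do not state the library kit, strandedness or read counter. The deposited values are a normalised signal, gene reads over 1 factor per library, in 3 tables scaled separately: dividing out the step gave whole reads for 100% of 239124 values within 0.01 read. The tables also hold log2 fold changes and adjusted p-values computed by the authors. A DESeq2 refit with the set in the model and shrunken fold changes differed from those log2 values by a median of 0.000416 to 0.000607. The authors called 1339, 406 and 371 genes, and that refit called 1341, 398 and 354.

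Here R 4.3.3 and limma 3.58.1 were used on log2(value + 1), which understates changes of low genes, for genes with a mean of at least 10, with a mean-variance trend, the set as a block and Benjamini-Hochberg adjustment at 0.05. Deposited pairs used the deposited values, and the other contrasts used recovered reads of 12899 common genes with joint DESeq2 size factors (DESeq2 1.42.0). Libraries in 2 tables held equal reads. edgeR 4.0.16, run as quasi-likelihood test on recovered reads, called 1205 genes for TNF-a in PLKO cells, 29 and 18 for knockdown with and without TNF-a, and 403 for TNF-a in shTon cells. Scripts were tested on simulated data. After group means were removed, 18 pairs of libraries of 1 set correlated at 0.609 to 0.889 and 36 pairs across sets at -0.741 to 0.180. The pairing is taken from the set number in the titles. The fit without the set, other tools, a pseudocount of 0.1, no filter, no trend and fits without 1 set were alternatives. Genes and lists were chosen with earlier results of these data known. Besides the 9 genes, up to 4 genes past the threshold with the largest change were named per list and comparison, or up to 2 with the smallest p where none passed. Promoters are from RefSeq (GRCr8), which is not the build of the files.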

Additional observations from a re-analysis of the deposited data

How the results depend on the processing

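Of 691 recomputed values of the 9 genes, 620 kept their direction and their side of the threshold, 30 lost the call, 13 gained one and 28 changed sign, each of those a value that did not pass. The number of genes past the threshold moved with the block, the trend, the libraries in the fit and the tool. With no replicate block it was 0 for TNF-a in PLKO cells, 0 for knockdown with TNF-a, 0 without TNF-a, 6 for TNF-a in shTon cells, 0 for the averaged knockdown and 167 for the averaged TNF-a effect, and 0 of the 9 genes passed in each of these (for the interaction also 0 of all genes). Without the mean-variance trend the counts were 55 for TNF-a in PLKO cells, 0 and 0 for knockdown, and 143 for TNF-a in shTon cells, with 0 of the 9 for TNF-a in PLKO cells and 1 for the averaged TNF-a effect. With all 12 libraries in the fit 696 genes passed for TNF-a in PLKO cells (1 of the 9), 444 for knockdown with TNF-a (1 of the 9) and 3 without. With a pseudocount of 0.1, 12 and 2 genes passed for knockdown with and without TNF-a, and 1 of the 9 for TNF-a in PLKO cells. DESeq2 called 360 genes for knockdown with TNF-a (2 of the 9), 403 without (1), 623 for TNF-a in shTon cells (1) and 4 of the 9 for the averaged TNF-a effect. The cause of these shifts was not tested.

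Leaving out a set in turn, and for the interaction and the averaged effects also the library labelled shTon_TNF of set 1, gave 545 to 1410 genes for TNF-a in PLKO cells (0 to 3 of the 9), 32 to 488 for knockdown with TNF-a (0 to 1), 12 to 283 without (0 to 1), 317 to 1105 for TNF-a in shTon cells (0 to 2), 0 to 1908 for the averaged knockdown (0 to 2), 163 to 2401 for the averaged TNF-a effect (0 to 2), and 2946 to 3865 among sets. Log2 values that changed sign in these fits ranged as follows. For knockdown without TNF-a they ran from -0.28 to 0.33 for Fn1, -0.020 to 0.29 for Fbn1, -0.44 to 0.11 for Fbln1 and -0.22 to 0.22 for Fbln5, and with TNF-a from -0.44 to 0.19 for Fbln1. For TNF-a in shTon cells they ran from -0.29 to 0.68 for Fn1, -0.16 to 0.23 for Postn, -0.23 to 0.65 for Fbn1 and -0.054 to 0.49 for Fbln2. For the interaction they ran from -0.030 to 0.80 for Fn1, -0.019 to 0.24 for Tnc, -0.055 to 0.35 for Sparc, -0.12 to 1.19 for Eln, -0.33 to 0.063 for Fbln1 and -0.22 to 0.41 for Fbln2. For the averaged knockdown they ran from -0.086 to 0.74 for Fn1 and -0.44 to 0.15 for Fbln1, and for the averaged TNF-a effect from -0.48 to 0.28 for Fn1 and -0.46 to 0.23 for Fbn1. The interaction of Fbln1 was 0.076 in edgeR and 0.045 in DESeq2, and the averaged TNF-a effect of Fn1 was 0.011 and 0.016. Eln, at 1 to 45 reads per library, is limited by depth.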
